A study of Mus musculus with 13 samples.

Results

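Neurons answer electrical activity with a fast wave of transcription factor genes and then, over hours, with genes whose products act at the synapse or leave the cell. The timing of induction was not measured here. The 10 genes described were listed under the slower wave: Bdnf, Inhba, Nptx2, Nrn1, Vgf, Scg2, Pcsk1, Homer1, Rgs2 and Ptgs2. They were taken by name, with earlier results of these data known, from 55536 genes in the files. Shares of all genes printed beside their counts are therefore a description and no test of the list. All 10 were among the 17483 genes with enough reads to test. Expression was measured by RNA sequencing of frontal cortex from wild-type B6SJLF1/J mice and from 5XFAD mice, at 6 and 11 months. 5XFAD is a transgenic strain that carries mutated human genes, among them APP, under a Thy1 promoter active mainly in neurons, and amyloid plaques form in its brain. At 6 months 4 libraries were wild type and 3 were 5XFAD, and at 11 months each genotype had 3. No treatment is named for any group.

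In the classical scheme, calcium entering an active neuron leads to phosphorylation of CREB, which binds the cAMP response element (CRE) in promoters and recruits its co-activators. The immediate early factors Fos, Egr1 and Npas4 are made within minutes, and many effector genes follow. In the cortex effectors include growth factors (BDNF, activin A), organisers of receptors at the synapse (NPTX2, NRN1), cargo and enzymes of secretory granules (VGF, SCG2, PCSK1) and modulators inside the cell (HOMER1, RGS2, PTGS2).

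Promoter stretches are shown first because the CRE is the letter pattern most often tied to such induction. RefSeq windows of GRCm38.p6, running from 250 bases before to 50 after a start, were present for 7 of the 10 genes, with 14 windows in all; Nptx2, Vgf and Nrn1 had none. The full palindrome TGACGTCA was found in 2 of the 14 windows, those of Scg2 and Pcsk1, and in 1.79% of all 32851 windows. The CRE core TGACG, searched on both strands and also counted inside the full palindrome, was found in 6 of the 14 windows, which belong to 6 of the 7 genes, and in 20.8% of all windows. The AP-1 pattern TGANTCA was found in 1 of the 14, a Bdnf window, and in 7.81% of all. Stretches of 4 genes with matches before the start follow, 5′ to 3′ on the strand of the gene, with each core (TGACG or its complement CGTCA) in capitals.
Scg2, chr1:79440076-79440105, minus strand: ggctgagccggTGACGTCAgcgtggaatgc
Pcsk1, chr13:75089726-75089825, plus strand: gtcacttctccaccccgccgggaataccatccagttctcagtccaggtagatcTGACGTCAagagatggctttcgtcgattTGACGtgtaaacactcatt
Bdnf, chr2:109692336-109692435, plus strand: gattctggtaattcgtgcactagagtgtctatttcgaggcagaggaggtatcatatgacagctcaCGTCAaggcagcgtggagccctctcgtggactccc
Homer1, chr13:93303657-93303756, plus strand: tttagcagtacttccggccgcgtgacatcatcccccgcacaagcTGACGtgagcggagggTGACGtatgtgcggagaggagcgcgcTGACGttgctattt
The palindrome began 68 bases before the RefSeq start in Scg2 and 78 bases before it in Pcsk1. Homer1 held cores 56, 40 and 14 bases before its start, and Bdnf held 1 at 35 bases before the start shown, which is 1 of its several alternative starts. Rgs2, whose stretch is not shown, held cores 185 and 67 bases before its start. The Scg2 stretch lies within the first exon of a longer annotated transcript. A match is a description of letters only, and no binding was measured.

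Libraries held 23618296 to 26615776 counts, and Slc17a7, the vesicular glutamate transporter of cortical excitatory neurons, stood at 655 to 1480 CPM (counts scaled to a common library size) in all 13. Some libraries carried RNA typical of neighbouring regions. The summed level of 7 striatal neuron markers (Drd1, Drd2, Adora2a, Ppp1r1b, Rgs9, Pde10a and Penk, none at 0 in all libraries of a group) ran from 1540 to 3650 CPM in wild type and from 702 to 2110 CPM in 5XFAD at 6 months. At 11 months the sums were 698, 366 and 3290 CPM in wild type and 840, 928 and 361 CPM in 5XFAD, so wild-type replicate 3 stood apart. Choroid plexus markers summed to 2980 CPM in wild-type replicate 1 at 6 months and to at most 38.4 CPM elsewhere. Sex was read from expression: females made up 2 of 4 wild-type and 0 of 3 5XFAD libraries at 6 months, and 1 of 3 and 2 of 3 at 11 months.

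At 11 months all 10 effector genes had lower mean levels in 5XFAD than in wild type. The neuropeptide precursor gene Vgf fell to 0.481 of its wild-type level, and it was the only one of the 10 past the threshold, an adjusted p under 0.05 over all genes in edgeR's quasi-likelihood test. Among all genes 4.31% passed in either direction and 0.503% were lower. The log2 fold changes of the 10 genes ran from -1.13 to -0.25 with a median of -0.69, beside -0.03 over all genes. A value below 0 was found for 10 of 10, and for 54.9% of all genes. The 3 wild-type and 3 5XFAD libraries did not overlap, with 5XFAD lower, for 5 of the 10 (Bdnf, Nptx2, Inhba, Scg2 and Vgf), against 8.76% of all genes. Before adjustment 7 had p under 0.05 in the lower direction, against 6.9% of all genes. Left-out libraries moved these counts. Wild-type replicate 1 held the highest level of 7 of the 10 genes. Without it 9 of 10 values were below 0, the median was -0.46, and 3 genes had an unadjusted p under 0.05 (3351 of 17873 genes did in either direction). Without 5XFAD replicate 1 that number was 4 (2280 of 17843 genes). Without wild-type replicate 3, the one with high striatal markers, 9 of 10 were below 0. Of the 10, Vgf was the only call in edgeR without wild-type replicate 1 (688 of 17873 genes passed) or 3 (629 of 17852 genes). Its adjusted p was 0.0414 in the latter fit. Without wild-type replicate 2, 4 of the 10 passed in edgeR, Homer1, Pcsk1, Scg2 and Vgf (840 of 17870 genes passed). Without 5XFAD replicate 2, 2 of the 10 passed, Homer1 and Vgf (756 of 17871 genes). Without 5XFAD replicate 1 or 3 none of the 10 did (554 of 17843 and 424 of 17839 genes). With 1 library fewer more genes separate, so each number of separated members is given with its own share of all genes. It was 6, 7 and 6 without wild-type replicate 1, 2 and 3 (15.3%, 15.6% and 16.2% of all genes), and 5, 8 and 5 without 5XFAD replicate 1, 2 and 3 (12.5%, 15.1% and 11.4%).

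At 6 months none of the 10 passed, against 1.32% of all genes, and the median log2 fold change was 0.05, beside -0.01 over all genes. Values below 0 numbered 4 of 10, against 51.7% of all genes. Before adjustment 3 genes had p under 0.05 in edgeR's test: Vgf and Scg2 lower in 5XFAD (3.48% of all genes were lower at that level) and Ptgs2 higher (5.61%). DESeq2 and limma on log2(TPM + 1) also called 0 of the 10, and voom with sample weights called 1, Vgf (424 of 17483 genes were called there). Groups did not overlap for Vgf and Scg2, lower in 5XFAD (5.07% of all genes), and for Homer1, higher in 5XFAD (6.97%).

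**Figure D1:**
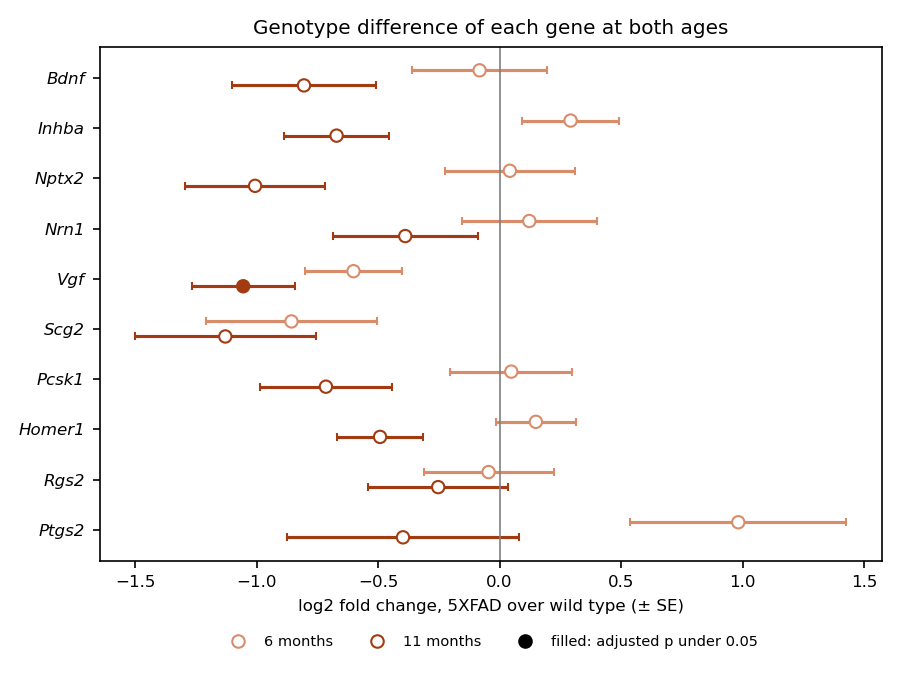
Log2 fold change of 5XFAD over wild type (x axis) for each of the 10 genes (y axis), at 6 months (light) and 11 months (dark), with standard errors; a filled point has an adjusted p under 0.05. All 11-month points lie left of 0, from -1.13 for Scg2 to -0.25 for Rgs2, and Vgf at 11 months is the one filled point.

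Because whole tissue was sequenced, fewer cells of a type and less RNA per cell cannot be told apart. Marker lists give the levels that stood beside these differences at 11 months. Pan-neuronal markers summed to 6170 to 7530 CPM in wild type, with 6780 to 7220 CPM in 5XFAD. Excitatory neuron markers summed to 3510 to 7500 and 5920 to 6340 CPM, and inhibitory neuron markers to 689 to 1440 and 692 to 806 CPM. None of the 8 genes of any of these 3 lists passed in edgeR's test at 11 months. Over all genes, 665 of 17483 rose in that test. Microglia markers summed to 326 to 561 CPM in wild type, with 1160 to 1570 CPM in 5XFAD, and 7 of 8 rose. Astrocyte markers summed to 2320 to 3700 CPM in wild type, with 3940 to 4680 CPM in 5XFAD, so these groups did not overlap either, and 2 of 8 rose. Inhibitory neuron markers had 7 of 8 log2 fold changes below 0 (median -0.35), where 54.9% of all genes were below 0. Deep cortical layer markers also had 7 of 8 (median -0.35, sums of 181 to 382 and 207 to 310 CPM, none passed). All 8 endothelial markers were below 0 (median -0.28, sums of 191 to 294 and 166 to 201 CPM, none passed). So were all 7 striatal markers (median -1.15, sums of 366 to 3290 and 361 to 928 CPM, none passed). The part of cell composition in the differences of the effector genes was not tested.

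Among the genes of secretory granules, Scg2 and Vgf had the lowest log2 fold changes of the 10 at 11 months. Vgf (ENSMUSG00000037428, GRCm38 chromosome 5, 137026392 to 137033351) encodes a precursor of secreted peptides that is itself induced by neurotrophins. At 11 months Vgf stood at 242, 127 and 210 CPM in the wild-type libraries and at 87.2, 99.7 and 91.6 CPM in the 5XFAD libraries. Every 5XFAD library lay below the lowest wild-type library, and the spread was wide in wild type (193 ± 59.3 CPM, SD, n = 3) and narrow in 5XFAD (92.8 ± 6.31 CPM, n = 3). On the log2 scale Vgf fell by 1.06 ± 0.21 (standard error), with an adjusted p of 0.0107 in edgeR's test. That call ended without 5XFAD replicate 1 (-1.01, adjusted p = 0.0575), without 5XFAD replicate 3 (-1.05, adjusted p = 0.0597) and when the 2 groups were fitted alone (-1.05, adjusted p = 0.0553).
At 6 months Vgf stood at 164, 160, 135 and 155 CPM in wild type and at 87.7, 84.3 and 131 CPM in 5XFAD. The highest 5XFAD library lay just under the lowest wild-type one, and the log2 fold change of -0.60 ± 0.20 did not pass (adjusted p = 0.292, edgeR).

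Scg2 (ENSMUSG00000050711, chromosome 1, 79434669 to 79440120) encodes secretogranin II, a granin packed into dense core vesicles. Its 11-month levels were 102, 88.9 and 278 CPM in wild type and 65.1, 85.6 and 63.6 CPM in 5XFAD. The groups did not overlap, but they came within a few CPM of each other, and 1 wild-type library, replicate 3, lay far above the rest. The log2 fold change was -1.13 ± 0.37 (adjusted p = 0.143, edgeR), and it was -0.42 ± 0.19 (adjusted p = 0.316) without that replicate.
At 6 months Scg2 stood at 148, 182, 110 and 133 CPM in wild type and at 86.0, 84.1 and 67.5 CPM in 5XFAD. All 3 5XFAD libraries lay below all 4 wild-type libraries, with 143 ± 30.01 CPM against 79.2 ± 10.1 CPM. The log2 fold change of -0.86 ± 0.35 did not pass (adjusted p = 0.484, edgeR). In the fit of the 2 groups alone Scg2 was called (-0.85, adjusted p = 0.0403), as were 261 of 16837 genes. It was also called without wild-type replicate 3 of 11 months (-0.86, adjusted p = 0.0185), where 250 of 17852 genes were. That library takes no part in the 6-month means but widens the shared spread.

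Pcsk1 (ENSMUSG00000021587, chromosome 13, 75089826 to 75134861) encodes prohormone convertase 1, which cuts peptide precursors inside granules. At 11 months its levels were 47.4, 21.4 and 31.2 CPM in wild type and 16.9, 24.03 and 20.03 CPM in 5XFAD. The groups overlapped through wild-type replicate 2. Its log2 fold change was -0.71 ± 0.27 (adjusted p = 0.203, edgeR); it was -0.37 without wild-type replicate 1 and -0.95 (adjusted p = 0.0486) without wild-type replicate 2. At 6 months the 3 5XFAD libraries lay together at 27.6 to 28.5 CPM inside a wild-type range of 20.9 to 35.8 CPM, and the log2 fold change was 0.05 ± 0.25.

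**Figure D2:**
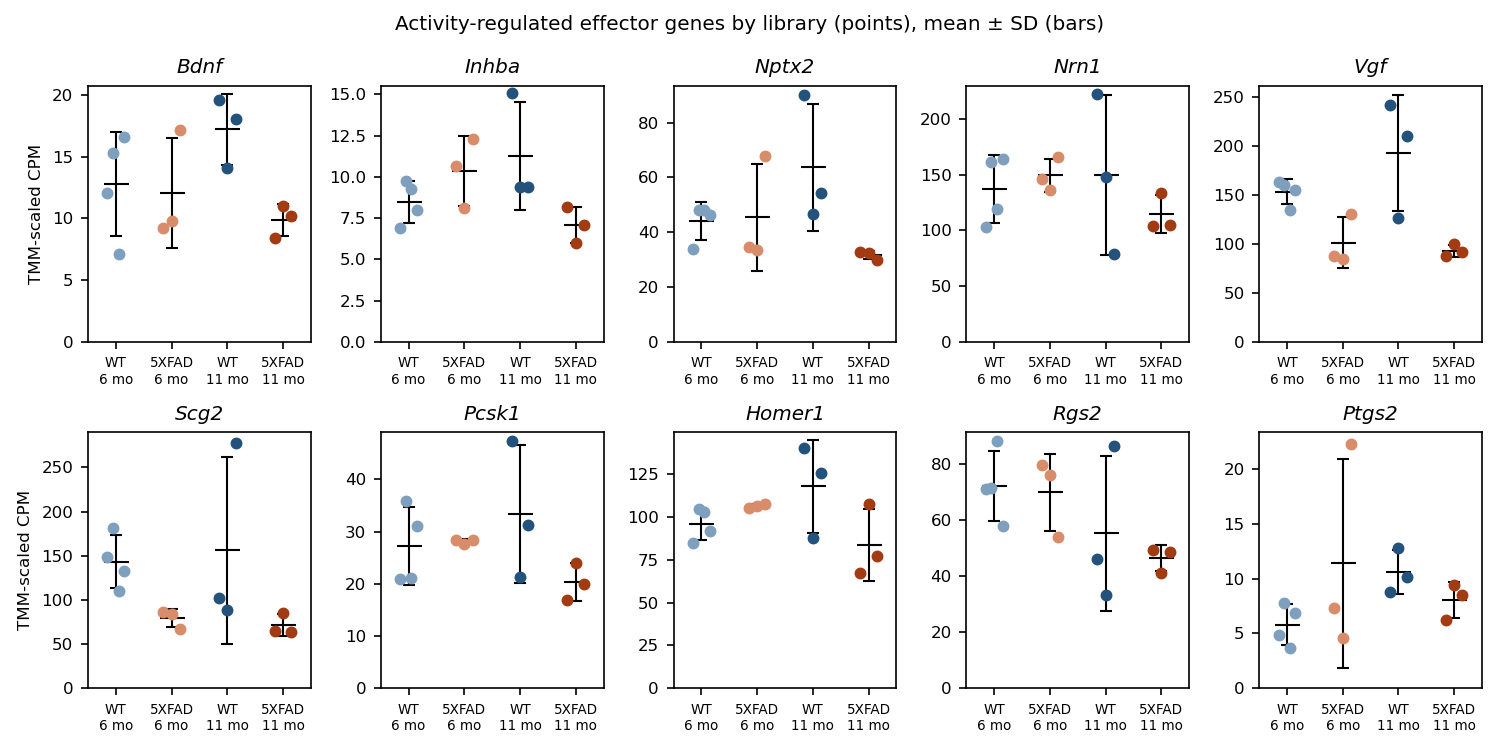
Level of each of the 10 genes (y axis, TMM-scaled CPM from 0) in each library (points) of the 4 groups (x axis), with the mean and SD of the group as bars. The 3 5XFAD libraries at 11 months lie close together in most panels, for Nptx2 at 29.99 to 32.6 CPM, while wild type of that age spreads widely, for Nptx2 from 46.7 to 90.2 CPM.

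Both growth factor genes were among the 5 whose groups separated at 11 months. Bdnf (ENSMUSG00000048482, chromosome 2, 109674700 to 109727007) encodes brain-derived neurotrophic factor, the ligand of the receptor TrkB (gene Ntrk2). Its levels at 11 months were 19.6, 14.1 and 18.0 CPM in wild type and 8.42, 11.0 and 10.2 CPM in 5XFAD. All 5XFAD libraries were lower than all wild-type libraries, yet the log2 fold change of -0.81 ± 0.30 did not pass (adjusted p = 0.185, edgeR). At 6 months the levels were 12.1, 15.3, 7.14 and 16.6 CPM in wild type and 9.22, 9.77 and 17.2 CPM in 5XFAD, with a log2 fold change of -0.08 ± 0.28. At that age the groups overlapped over nearly their whole range. The overlapping antisense gene Gm45346 held at most 3.32 counts in a library.

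Inhba (ENSMUSG00000041324, chromosome 13, 16011851 to 16031621) encodes the βA subunit of activin A, a secreted ligand of the TGF-β family. At 11 months it stood at 15.1, 9.37 and 9.37 CPM in wild type and at 8.17, 5.97 and 7.09 CPM in 5XFAD. The groups did not overlap, and wild-type replicate 1 was the highest of all 13 libraries. For Inhba the log2 fold change was -0.67 ± 0.22 (adjusted p = 0.118, edgeR), and it was -0.41 ± 0.20 (adjusted p = 0.299) without that replicate. At 6 months Inhba stood at 8.48 ± 1.29 CPM in wild type, with 10.4 ± 2.12 CPM in 5XFAD, a log2 fold change of 0.29 ± 0.20 (adjusted p = 0.737).

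Of the synaptic organisers, Nptx2 had the second lowest p of the 10 at 11 months. Nptx2 (ENSMUSG00000059991, chromosome 5, 144545902 to 144557478) encodes a secreted neuronal pentraxin that gathers AMPA receptors at excitatory synapses onto interneurons. At 11 months its levels were 90.2, 46.7 and 54.3 CPM in wild type and 32.6, 32.6 and 29.99 CPM in 5XFAD. All 3 5XFAD libraries agreed within 3 CPM and lay below the lowest wild-type library. The log2 fold change of -1.01 ± 0.29 missed the threshold in edgeR's test (adjusted p = 0.0849) and passed it in DESeq2 (-0.99, adjusted p = 0.00659). DESeq2 called 1128 of 17483 genes at 11 months, 220 of them lower, where edgeR called 753, 88 of them lower. Nptx2 also passed in edgeR without 5XFAD replicate 3 of 6 months (-1.01, adjusted p = 0.0187), where 686 of 17875 genes did.
At 6 months Nptx2 stood at 34.0, 48.3, 48.0 and 46.2 CPM in wild type and at 34.5, 33.7 and 68.0 CPM in 5XFAD. One 5XFAD library was above all wild-type libraries and the others were near the lowest of them. The log2 fold change was 0.04 ± 0.27.

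Nrn1 (ENSMUSG00000039114, chromosome 13, 36725361 to 36735131) encodes neuritin, a membrane-anchored protein first described as activity-induced and linked to neurite growth. At 11 months it stood at 222, 148 and 78.9 CPM in wild type and at 104, 134 and 105 CPM in 5XFAD. Wild type held both the highest and the lowest of all 13 libraries, and the log2 fold change of -0.39 ± 0.30 did not pass (adjusted p = 0.602, edgeR). It was -0.70 ± 0.21 (adjusted p = 0.116) without wild-type replicate 3 and 0.01 without wild-type replicate 1. At 6 months the levels were 137 ± 30.4 CPM in wild type, with 149 ± 14.9 CPM in 5XFAD. Exons of Nrn1 overlap those of Fars2 on the other strand, and no strand setting was given for the counting, so reads there may have been shared.

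Of the genes that act inside the cell, Homer1 varied least over the 13 libraries. Homer1 (ENSMUSG00000007617, chromosome 13, 93299635 to 93405129) encodes a postsynaptic scaffold that couples metabotropic glutamate receptors to calcium stores, and activity favours a short form that breaks this scaffold. At 11 months the gene stood at 140, 87.6 and 126 CPM in wild type and at 66.9, 107 and 77.0 CPM in 5XFAD. The groups overlapped, and the log2 fold change was -0.49 ± 0.18 (adjusted p = 0.173, edgeR); it passed without wild-type replicate 2 (-0.67, adjusted p = 0.0304) and without 5XFAD replicate 2 (-0.71, adjusted p = 0.0274). At 6 months the 5XFAD libraries stood at 105 to 107 CPM, just above the wild-type range of 84.7 to 104 CPM, with a log2 fold change of 0.15 ± 0.17. The gene total does not separate the forms. The mean transcript length given by the quantifier, which falls as shorter transcripts gain weight, ran from 3779 to 4255 bases for Homer1. Its annotated transcripts span 625 to 5713 bases. None of them was assigned to the short form that breaks the scaffold, so this length does not follow that form. At 11 months the mean length was 3870 to 4068 bases in wild type and 3822 to 3994 bases in 5XFAD, and the groups overlapped.

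Rgs2 (ENSMUSG00000026360, chromosome 1, 143999338 to 144004161) encodes a GTPase-activating protein that ends signalling by Gq. At 11 months it stood at 46.1, 33.3 and 86.2 CPM in wild type and at 49.3, 41.0 and 48.6 CPM in 5XFAD. The groups overlapped, and wild-type replicate 3 was again far from its group. Its log2 fold change was -0.25 ± 0.29 (adjusted p = 0.743, edgeR) and 0.22 without that replicate. At 6 months Rgs2 stood at 72.1 ± 12.4 CPM in wild type, with 69.8 ± 13.8 CPM in 5XFAD.

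Ptgs2 (ENSMUSG00000032487, chromosome 1, 150100031 to 150108227) encodes cyclooxygenase 2, the inducible enzyme of prostaglandin synthesis, which excitatory neurons make after activity. At 6 months it stood at 4.87, 7.76, 3.65 and 6.86 CPM in wild type and at 7.31, 4.61 and 22.3 CPM in 5XFAD. One 5XFAD library, replicate 3, held the highest level of all 13, and the other 2 lay in the wild-type range. Its log2 fold change was 0.98 ± 0.45 (adjusted p = 0.544, edgeR) and 0.05 without replicate 3. At 11 months Ptgs2 stood at 10.6 ± 2.03 CPM in wild type, with 8.04 ± 1.66 CPM in 5XFAD, a log2 fold change of -0.40 ± 0.48 that was -0.24 without wild-type replicate 2 or without 5XFAD replicate 1.

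On the length-corrected TPM scale, averaged over the 13 libraries, the order of levels was Nrn1 (133 ± 41.1 TPM, SD), Vgf (84.0 ± 35.1), Scg2 (71.7 ± 40.3), Homer1 (36.4 ± 8.14), Rgs2 (31.4 ± 9.62), Nptx2 (26.99 ± 11.5), Pcsk1 (7.63 ± 2.68), Bdnf (4.61 ± 1.65), Ptgs2 (2.73 ± 1.41) and Inhba (2.01 ± 0.60). Neighbours in this order overlapped in range, with 1 exception: the lowest Nptx2 library (16.0 TPM) lay above the highest Pcsk1 library (14.7 TPM). The highest library exceeded the lowest by 2.09-fold for Homer1 and by 6.12-fold for Ptgs2, the ends of that range on the CPM scale.

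Whether the genotype difference grew between the ages was tested as an interaction, which uses the same libraries as both genotype comparisons. The difference at 11 months minus that at 6 months was below 0 for 10 of 10 genes (52.1% of all genes), with a median of -0.68 beside -0.01 over all genes. None passed in edgeR's test, where 0.00572% of all genes did, and the adjusted p was 1.0 for each. The unadjusted p was under 0.05 for Inhba (-0.96 ± 0.29), Homer1 (-0.64 ± 0.24) and Nptx2 (-1.05 ± 0.39), against 1.39% of all genes in that direction. DESeq2, limma on log2(TPM + 1) and voom with sample weights called 0 of the 10 as well. Without wild-type replicate 1 of 11 months the number with an unadjusted p under 0.05 was 1 (822 of 17873 genes in either direction). It was 5 without wild-type replicate 2 of 11 months (1072 of 17870 genes) and 5 without wild-type replicate 2 of 6 months (691 of 17457 genes). The median was -0.44 without 5XFAD replicate 3 of 6 months, where Nptx2 was at -0.64 and Ptgs2 at -0.45 in place of -1.38. Without wild-type replicate 3 of 11 months 8 of 10 were below 0, with Rgs2 at 0.27 and Scg2 at 0.44.

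Age within each genotype was compared on these same libraries. In wild type 9 of 10 genes had higher mean levels at 11 than at 6 months (47.9% of all genes were below 0), with log2 differences from 0.12 for Scg2 to 0.87 for Ptgs2, and Rgs2 was lower (-0.39 ± 0.27). None passed in edgeR (3.71% of all genes did), none had an unadjusted p under 0.05, and DESeq2, limma and voom called none. Without wild-type replicate 3 of 11 months Rgs2 was called (-0.86, adjusted p = 0.0321, edgeR), as were 900 of 17852 genes. With the striatal marker sum as a covariate Rgs2 was at -0.05. Ptgs2 was the one gene whose age groups did not overlap, at 8.81 to 12.8 CPM against 3.65 to 7.76 CPM (9.11% of all genes were so separated and higher). In 5XFAD all 10 had lower mean levels at 11 months (50.1% of all genes), from -0.12 ± 0.21 for Vgf to -0.59 ± 0.29 for Rgs2. With the striatal marker sum as a covariate Rgs2 was at -0.18 ± 0.16 in 5XFAD. None of the 10 passed in edgeR (7.23% of all genes did). Inhba had an unadjusted p of 0.0233 in that test, and 10.6% of all genes were lower with an unadjusted p under 0.05. DESeq2 and limma called none. Voom called Homer1 and Rgs2, where it called 3977 of 17483 genes. On the compared groups alone edgeR called Pcsk1, Rgs2 and Nrn1, and 2610 of 16794 genes. The age groups of 5XFAD did not overlap for Nptx2, Pcsk1, Rgs2 and Nrn1, lower at 11 months, a share of 4 in 10 beside 17.3% of all genes. Without 5XFAD replicate 3 of 6 months, the values of Bdnf (0.05), Vgf (0.11) and Ptgs2 (0.43) were above 0.

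**Figure D3:**
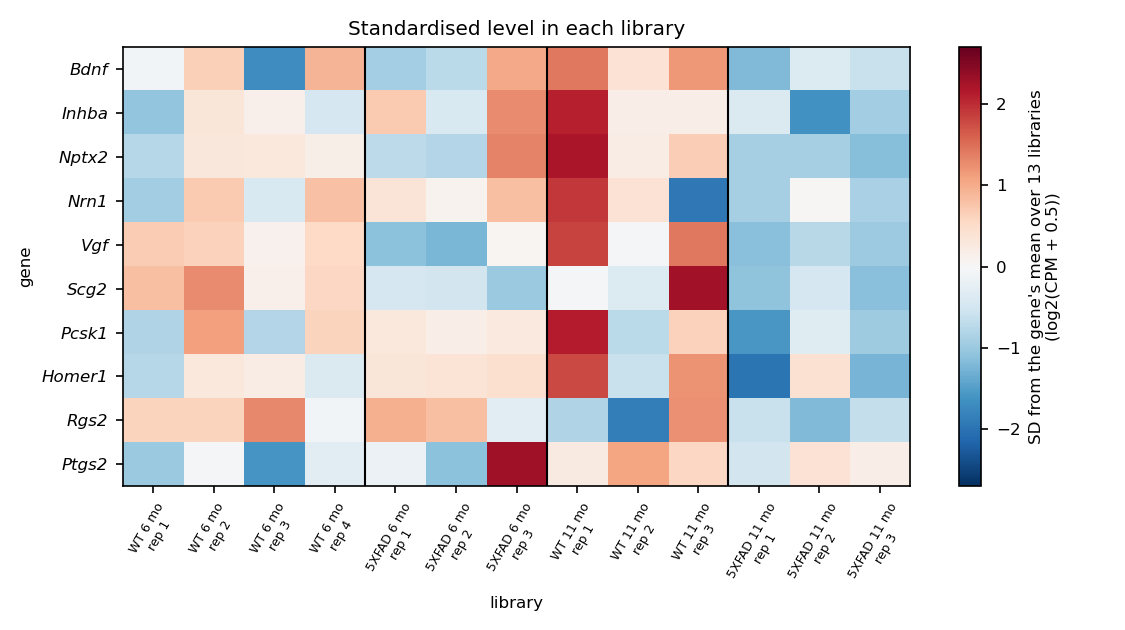
Standardised level of each of the 10 genes (y axis) in each of the 13 libraries (x axis): log2(CPM + 0.5) minus the mean of the gene over all libraries, in SD, red above and blue below. The 3 columns of 5XFAD at 11 months are mostly blue, with 0, 3 and 1 of the 10 genes above their mean, and wild-type replicate 1 of 11 months is mostly red, with 8 of 10 above.

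Levels of the 10 genes were compared library by library. Averaged over the genes, the standardised level was 1.27, -0.14 and 0.74 SD in wild type at 11 months and -1.02, -0.48 and -0.84 SD in 5XFAD. These were the 3 lowest of the 13 libraries, and the others at 6 months ran from -0.33 to 0.62 SD. Of the 45 pairs of genes 39 had a Pearson r above 0 over the 13 libraries, with a median r of 0.45; over all pairs of the 17483 genes 49.7% were above 0. With the group means removed 36 pairs were above 0, with a median of 0.28, beside 50% of all pairs. The most alike pairs were Nptx2 with Inhba (r = 0.84) and Homer1 with Pcsk1 (r = 0.83). Other pairs were opposed, and with the group means removed r was -0.71 for Rgs2 with Nrn1, -0.57 for Scg2 with Nrn1 and -0.51 for Rgs2 with Ptgs2. All these values share libraries and their scaling, and they are given as a description.

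Genes outside the list whose log2 CPM most resembled the mean of the 10 over the 13 libraries were Hcrtr2 (r = 0.85), Fosb (0.85) and Camk1g (0.82), followed by Ralgapa1, Samd10, Grik1, Clstn3, Nr4a3 (0.80) and Gpr3 (0.79). Fosb and Nr4a3 are themselves immediate early genes. For single genes the nearest patterns were Armcx4 for Bdnf (0.88), Dnajb5 for Nptx2 (0.85), Fastkd2 for Homer1 (0.87), Osgin2 for Inhba (0.76), Hcrtr2 for Pcsk1 (0.87), Nkpd1 for Ptgs2 (0.81), Mterf2 for Rgs2 (0.97), Plppr4 for Scg2 (0.97), Cdyl2 for Vgf (0.91) and Cds1 for Nrn1 (0.96). Some of these genes had low mean levels over the 13 libraries, with Hcrtr2 at 1.11, Nkpd1 at 1.19 and Cdyl2 at 1.41 CPM.

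Rgs2 was higher in the libraries with more striatal marker RNA. The 6 libraries with a sum of at most 928 CPM held Rgs2 at 33.3 to 54.0 CPM, and the 7 with a sum of at least 1540 CPM held it at 57.8 to 88.1 CPM. The sum ran largely together with age. All low-sum libraries but 5XFAD replicate 3 of 6 months were from 11 months. All high-sum libraries but wild-type replicate 3 of 11 months were from 6 months. Wild-type replicate 3 of 11 months, with a sum of 3290 CPM, held the highest Scg2 (278 CPM) and the lowest Nrn1 (78.9 CPM) of all 13. Scg2 and Nrn1 did not separate in this way: wild-type replicate 3 of 6 months, with the highest sum of 3650 CPM, held 110 CPM of Scg2 and 119 CPM of Nrn1, and the 5XFAD library with the lowest sum of 361 CPM held 105 CPM of Nrn1. With the log2 of this sum as a covariate, an alternative chosen after the data were seen, the 11-month log2 fold change of Vgf was -1.05 with an adjusted p of 0.0202 in edgeR, and that of Rgs2 was 0.05. Vgf was therefore called with and without this term. At 6 months Scg2 was at -0.65 ± 0.25 with the term (adjusted p = 0.42, edgeR), in place of -0.86 ± 0.35. Nrn1 was at -0.05 ± 0.24 in place of 0.12 ± 0.28. With the group means removed, Scg2 and Rgs2 had an r of 0.70. The part of striatal RNA in the levels of Scg2 and Nrn1 was not tested.

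**Figure D4:**
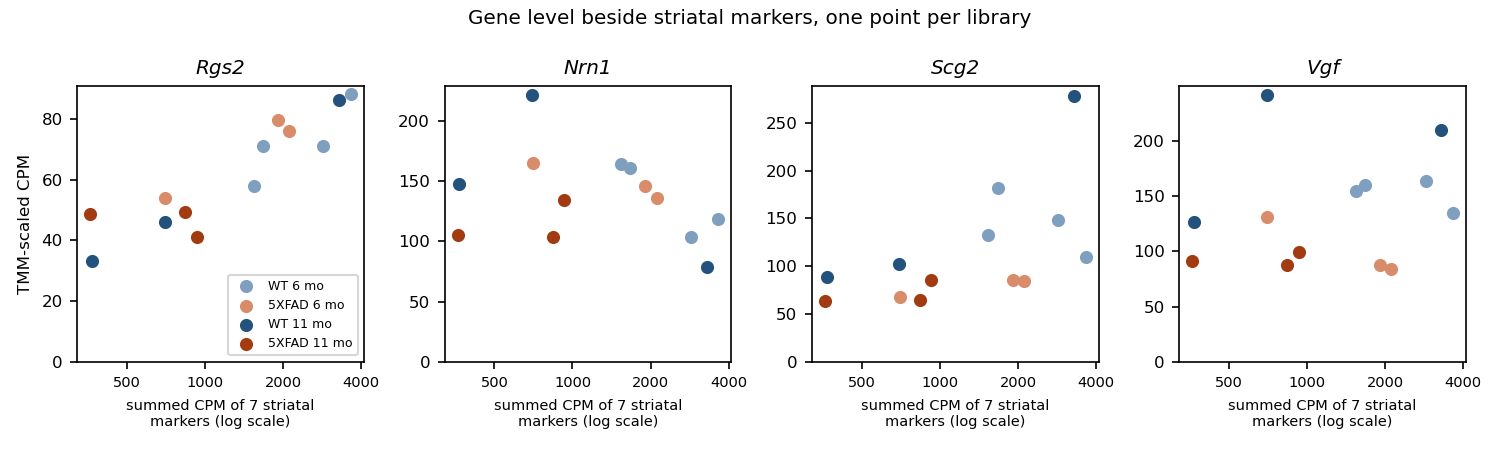
Level of Rgs2, Nrn1, Scg2 and Vgf (y axes, TMM-scaled CPM) against the summed CPM of 7 striatal markers (x axis, log scale), 1 point per library, coloured by group. Rgs2 lies at 57.8 CPM or higher in all libraries with a sum of at least 1540 CPM and at 54.0 CPM or lower in the others, while for Vgf the 5XFAD libraries of 11 months lie at the bottom of the range at sums of 361 to 928 CPM.

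Immediate early genes, the faster wave, were also lowest in 5XFAD at 11 months. Of 25 such genes, 4 fell in 5XFAD at 11 months in edgeR's test (Nr4a1, Klf10, Fosl2 and Egr4), beside 0.503% of all genes, and none rose. An unadjusted p under 0.05 was found for 14 in the lower direction, beside 6.9% of all genes, and for 1 in the higher. In either direction 2757 of 17483 genes had such a p. Fosl2 stood at 28.3 ± 6.495 CPM in wild type, with 13.5 ± 4.94 CPM in 5XFAD (-1.06 ± 0.24, adjusted p = 0.0229). The median over the 25 was -0.74, near the -0.69 of the 10 effector genes. Their mean standardised level was -0.78, -0.55 and -1.19 SD in the 5XFAD libraries of 11 months and -0.09 to 0.81 SD in the other 10. With age in 5XFAD 11 of the 25 fell from 6 to 11 months (2.39% of all genes fell), among them Arc, from 237 ± 6.60 to 67.7 ± 30.4 CPM (-1.81 ± 0.34, adjusted p = 0.0142). In wild type none of the 25 was called with age. Their median log2 difference there was -0.32, with 17 of 25 below 0, beside -0.89 and 21 of 25 in 5XFAD. An unadjusted p under 0.05 was found in wild type for 7 lower and 3 higher, beside 10.7% and 13.1% of all genes.

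**Figure D5:**
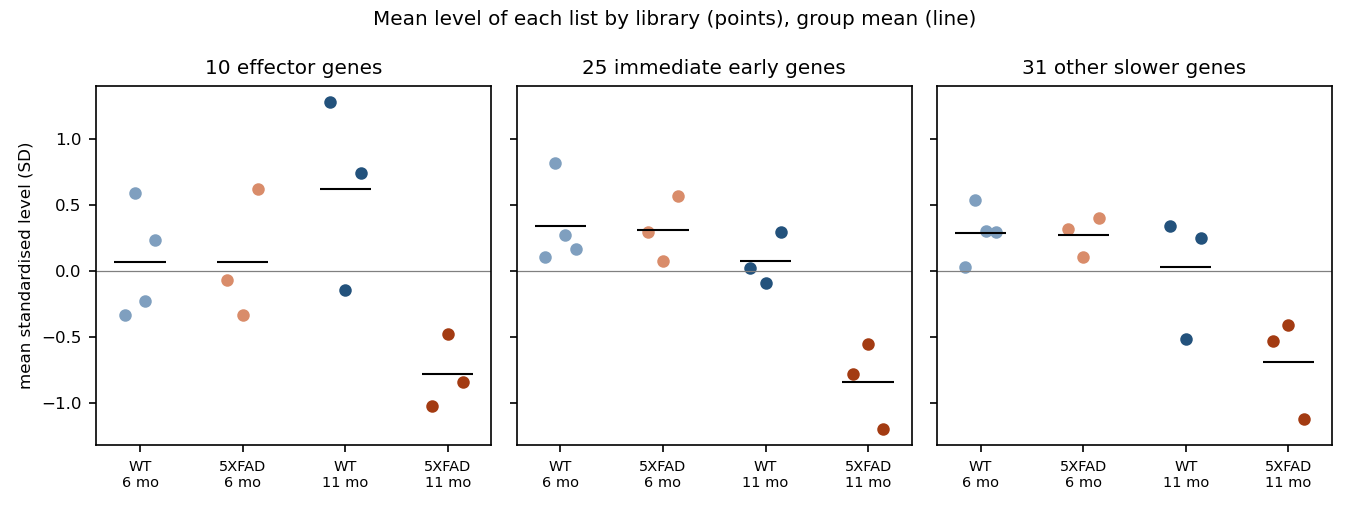
Mean standardised level (y axis, SD) of the 10 effector genes, 25 immediate early genes and 31 other slower activity-regulated genes in each library (points) of the 4 groups (x axis), with the group mean as a line. In the first panel wild type at 11 months lies above the 6-month groups on average, and the 5XFAD libraries of 11 months are the lowest in the first and second panels.

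In a further list of 31 slower activity-regulated genes, 2 fell at 11 months in edgeR's test, beside 0.503% of all genes. They were the receptor gene Gpr3 (-1.12 ± 0.25, adjusted p = 0.0189) and the interneuron peptide gene Cort (-1.73 ± 0.46, adjusted p = 0.0499). The median of that list was -0.22, with 25 of 31 values below 0, beside 54.9% of all genes.

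Partners of the effector genes were examined by role, all in edgeR's test at 11 months. Over all genes, 0.503% passed as lower in that test and 665 of 17483 as higher. Among 8 tested genes for neurotrophin receptors and processing, the NT-3 receptor gene Ntrk3 fell from 116 ± 7.37 to 86.7 ± 2.43 CPM (-0.42 ± 0.09, adjusted p = 0.0162), while Ntrk2, the BDNF receptor gene, was at 0.15 ± 0.11 and did not pass. Of 6 pentraxin partners none passed and none had an unadjusted p under 0.05; Nptx1, the nearest relative of Nptx2, was at 0.40 ± 0.21. The 8 Homer relatives and partners gave no call and no unadjusted p under 0.05. Among 10 activin genes none passed. An unadjusted p under 0.05 was found for 2 in the lower direction, beside 6.9% of all genes, and for 1 in the higher. In either direction 2757 of 17483 genes had such a p. The activin-binding gene Fst was at -1.12 ± 0.39 (adjusted p = 0.152).
The other granule genes did not share the direction of Vgf and Scg2 in every case. Of 10 granin and prohormone processing genes none passed, and the 1 with an unadjusted p under 0.05 was Scg3 at 0.35 ± 0.12 (adjusted p = 0.128), higher in 5XFAD. Beside Ptgs2, 1 of 10 prostaglandin genes rose, the constitutive cyclooxygenase gene Ptgs1, from 16.9 ± 3.79 to 28.6 ± 4.58 CPM (0.75 ± 0.18, adjusted p = 0.0266). Of 16 other RGS genes 2 rose, Rgs1 (3.22 ± 0.50, adjusted p = 0.00119) and Rgs10 (0.75 ± 0.14, adjusted p = 0.00549), both known as immune cell genes. In the CREB pathway 1 of 16 fell, the kinase gene Rps6ka3 (-0.48 ± 0.09, adjusted p = 0.00659), and 7 had an unadjusted p under 0.05, all lower, beside 6.9% of all genes. Creb1 itself was at 0.04 ± 0.10. At 6 months 1 gene of these 10 lists passed in edgeR's test, Rgs1 (2.24 ± 0.45, adjusted p = 0.0228), beside 1.32% of all genes.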

How the data were processed

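RNA sequencing of frontal cortex gave 13 libraries, placed in groups by their titles. Per the submitters' processing notes, reads were aligned with STAR 2.7.1 and quantified with RSEM on GRCm38; for the annotation and strandedness, nothing was given in the sources used here. RSEM's output, as deposited, has an expected count, a TPM and an FPKM for each gene, and the mean transcript length. FPKM values as deposited were not used, and the deposited TPM values served for levels between genes and for 1 alternative. All 55536 identifiers matched GENCODE M21. Expected counts as deposited by the authors were rounded, filtered with filterByExpr (minimum count 10, total 15) and scaled by TMM. One model with 4 group means over all libraries was fitted in edgeR 4.0.16 (R 4.3.3; robust quasi-likelihood test, Benjamini-Hochberg over 17483 genes, threshold 0.05), and checked on simulated data. Standard errors were obtained from the log2 fold change and the square root of F. Nothing in the labels ties a library to an animal, so a p-value reflects only how these libraries spread, part of which may be technical.

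The members and lists were chosen with earlier results of these data known. Named genes are all 10 members; from each related list those past the threshold, otherwise the smallest p; and, by Pearson correlation of log2 CPM over 13 libraries, the 3 most like each member (the nearest is printed) and the 10 most like their mean. Arc, Ntrk2, Nptx1 and Creb1 were named after their values were seen. One striatal marker and 1 gene like the members' mean are not reported here. Promoter windows came from RefSeq on GRCm38.p6. Alternatives were other scalings, DESeq2 1.42.0, no filter, limma 3.58.1 on log2(TPM + 1), voom with sample weights, sex as a covariate, the compared groups alone, each library left out and, added later, a striatal covariate.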

Additional observations from a re-analysis of the deposited data

Results flagged for a closer look

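In groups of 4 libraries, the most extreme value was examined with Dixon's ratio for each of the 10 genes, and 1 of 10 was marked. Nptx2 in wild-type replicate 1 at 6 months stood at 34.0 CPM, far below the other 3 libraries of its group (46.2 to 48.3 CPM). Chance marks about 1 in 20 such groups. The same library held the choroid plexus marker sum of 2980 CPM, and the part of that RNA in the Nptx2 value was not tested. Without it the Nptx2 log2 fold change at 6 months was -0.06 in place of 0.04.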

How the results depend on the processing

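No paired analysis was possible because the labels give the groups no shared replicate numbers. Left-out 6-month libraries (7 alternatives) take no part in the 11-month means; over the other 15 alternatives, 147 of 150 log2 fold changes at 11 months were below 0; the exceptions were Rgs2 (0.0526 with the striatal covariate, 0.221 without wild-type replicate 3) and Nrn1 (0.0096 without wild-type replicate 1). Members called at 6 months numbered 1 with voom and in the groups alone, where 0 were called otherwise (0 to 1 over left-out libraries). At 11 months they numbered 2 with DESeq2 (1128 of 17483 genes were called there) and 0 in the groups alone (0 to 4). In the interaction they stayed at 0. With age they numbered 0 to 1 in wild type over left-out libraries (Rgs2 without replicate 3 of 11 months); in 5XFAD, 2 with voom, 3 in the groups alone and 0 to 0 over left-out libraries.

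All genes called were 231 at 6 months (384 with DESeq2, 424 with voom, 134 to 269 over left-out libraries) and 753 at 11 months (443 in the groups alone, 424 to 840). For the interaction it was 1 (30 with DESeq2, 4 with limma on TPM, 1 to 3). For age in wild type it was 649 (1843 with DESeq2, 296 with limma on TPM, 163 with voom, 345 with sex, 219 with the striatal covariate, 1 in the groups alone, 0 to 1921). For age in 5XFAD it was 1264 (2063, 825, 3977 with voom, 678 with the striatal covariate, 2610 in the groups alone, 97 to 1801).

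Signs turned at 6 months for Nptx2 (-0.152 with limma on TPM, -0.182 with voom, -0.0853 with the striatal covariate, -0.37 to 0.223 over left-out libraries), Homer1 (-0.0365 with limma on TPM), Pcsk1 (-0.0441 with limma on TPM, -0.056 with voom, -0.0587 to 0.209), Rgs2 (0.0867 with voom, 0.177 with the striatal covariate, -0.149 to 0.11), Nrn1 (-0.0209 with voom, -0.0523 with the striatal covariate) and Bdnf (-0.427 to 0.079). Left-out libraries gave Rgs2 -0.515 to 0.221 and Nrn1 -0.697 to 0.0096 at 11 months, and Rgs2 -0.47 to 0.266 and Scg2 -0.556 to 0.439 in the interaction. With age in wild type signs turned for Scg2 (-0.0216 with limma on TPM, -0.22 with voom, -0.589 to 0.406), Nrn1 (-0.27 with the striatal covariate, -0.272 to 0.434) and Pcsk1 (-0.0489 to 0.532). In 5XFAD they turned for Scg2 (0.249 with the striatal covariate), Ptgs2 (0.0551 with voom, -0.869 to 0.427), Bdnf (-0.454 to 0.0524) and Vgf (-0.225 to 0.109). None of the turned values passed, and the cause was not tested.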
